A study of Drosophila melanogaster with 2 samples.

Results

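The regions described here are the pooled p53-eGFP chromatin immunoprecipitation sequencing (ChIP-seq) regions that rank just below the authors' final peak list, and there are 2186 of them among 26752 pooled regions. They were chosen by the authors' signal value per region: the pooled dm6 list was sorted from the highest signal value down, as many ranks below the final list were taken as that list is long, and 104 regions that overlap a final peak by at least 1 bp were dropped. The final list was made with the irreproducible discovery rate (IDR), which compares peak ranks between replicates, and its peaks are called IDR peaks. They were exactly the strongest pooled regions, so the regions below start where that list ends. That limit is thus one of pooled signal, and not every IDR peak ranked alike in both replicates. In replicate 2, 99.7% of the IDR peaks were listed, at ranks down to 29116. The chromatin came from whole Drosophila melanogaster embryos of both sexes, 0 to 24 h old, of the strain p53-MiMIC-GFP. In this strain an eGFP exon inserted in an intron of the endogenous p53 gene makes a p53-GFP fusion. One label names p53 as the antibody target, whereas the description names an anti-GFP antibody. Biological replicates 2 and 3 form 1 group with no other genotype, treatment or stage, and all cell types of the embryo were pooled in each.

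p53 is a sequence-specific transcription factor that binds DNA as a tetramer, on sites built from paired half-sites. In Drosophila it is best known for activating cell death genes such as rpr and hid after DNA damage, and it also acts in the germline and in tissue repair. Many transcription factor ChIP-seq experiments also recover active promoters, where open chromatin, RNA polymerase and promoter-binding proteins such as DREF and M1BP are found together.

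Examples of p53-like sequences under these summits are shown first, because the fusion protein is the one that was precipitated. A full site was defined as 2 half-sites of the known p53 pattern, next to each other or 1 bp apart, in which no more than 3 of 20 positions mismatch. Both strands were searched, to 100 bp on either side of the summit. Sequences are from the plus strand of the Release 6 (dm6) genome, 5′ to 3′, and capitals mark both half-sites.
nAChRalpha4, intron, 3L:23269893-23269920: cttaGAACTTGTCCAAACATGTCTgcaa
RpL15, promoter, 3L:27267211-27267238: cccaAAGCAACTCTGAGCTTGTTTgtcg
Rca1, promoter, 2L:6852100-6852127: gcttGAACTCTTTTAGACATGTTTataa
Lrp4, coding exon, X:15912054-15912081: ttgtGTACATGTCTGGACATGTATttga
PGRP-LB, intron, 3R:11458694-11458722: aaacCAACTTGTTTgAAATTAGCTTtgat
The site nearest to nAChRalpha4, an acetylcholine receptor subunit gene, had 0 mismatches and was the only such site among the 2186 regions. Of 2 regions with a 1-mismatch site and 18 with a 2-mismatch site, 1 and 3 are shown. At RpL15, a ribosomal protein gene, the site with 1 mismatch had its middle 6 bp from the summit. The sites at Rca1, a regulator of the anaphase-promoting complex, at Lrp4, a receptor gene, and at PGRP-LB, a peptidoglycan recognition protein gene, had 2 mismatches each, and the last has a spacer of 1 bp.

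Short words that mark many fly housekeeping promoters were more frequent at these summits than in the next ranks, with values given further on. Strong examples are shown with the word in capitals.
mRpL32, promoter, 3R:31252834-31252863, DREF word: ttctataaacaTATCGATAgcacagctgtt
Rpn1, promoter, 3L:19915039-19915068, M1BP word: gttcgccgcgcGGTCACACtgcaaaaagcg
mRpL32 encodes a mitochondrial ribosomal protein and Rpn1 a subunit of the proteasome. Windows reaching 100 bp to either side of 3 intronic summits follow, chosen after their values were seen. In the first the capitals mark the full p53 site, and in the others they mark each searched word.
nAChRalpha4, 3L:23269857-23270057: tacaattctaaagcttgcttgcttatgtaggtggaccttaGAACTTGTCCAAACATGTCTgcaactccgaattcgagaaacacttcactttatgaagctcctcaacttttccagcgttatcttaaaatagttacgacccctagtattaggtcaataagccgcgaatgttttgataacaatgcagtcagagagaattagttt
muc, 2L:7420640-7420840: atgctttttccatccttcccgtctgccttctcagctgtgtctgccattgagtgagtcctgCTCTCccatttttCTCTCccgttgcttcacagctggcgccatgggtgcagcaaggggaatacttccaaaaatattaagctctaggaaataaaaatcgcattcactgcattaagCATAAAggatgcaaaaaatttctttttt
trbl, 3L:20399698-20399898: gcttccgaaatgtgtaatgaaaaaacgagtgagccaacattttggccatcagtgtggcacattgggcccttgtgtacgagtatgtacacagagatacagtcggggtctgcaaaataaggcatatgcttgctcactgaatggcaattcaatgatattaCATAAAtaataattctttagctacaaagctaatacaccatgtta
The muc and trbl summits were supported in both replicates and held no full p53 site. Their capitals are the reverse complements of the GAGA factor word GAGAG and of the Caudal word TTTATG. The nAChRalpha4 region was supported in both as well, with q values of 0.00786 in replicate 2 and 0.0143 in replicate 3. Among all 336 regions supported in both, 17 (5.06%) held a full p53 site, beside 6.36% of the 2186 regions.

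Signal values of these regions ran from 51.5 to 75.8, with a median of 60.6. The IDR peaks had a median of 109 and reached 1970, and the 2213 regions of an equal run of ranks below them that overlap no IDR peak, called the next ranks, ran from 42.1 to 51.5 with a median of 46.1. These values chose the regions, so they are a description. At the upper limit the weakest IDR peak, nearest to CG6106 on X, had a signal value of 75.7923, and the strongest region below it, at gpp on 3R, had 75.7919. At the lower limit a region nearest to GATAd on 2L had 51.5415 and the first one outside, nearest to MtnD on 3R, had 51.535. No step in signal therefore stood at either limit. The deposited pooled q was 0.01 or less for 1018 regions (46.6%, 95% Wilson interval 44.5 to 48.7), beside 12.5% of all pooled regions, and 0.05 or less for 2185 of them, beside 17.1% of all. The rule used the same pooled list, so nothing is read from those shares. How the authors scaled the signal value was not given in the sources used here, and the number of reads behind a region is unknown, so all intervals on shares cover counting error only.

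All 2186 regions were 396 bp wide, and 84 of them (3.84%) overlapped another one, which leaves 2144 separate loci. Their median gap to the nearest IDR peak was 10431 bp, and 219 lay within 1 kb and 708 (32.4%) within 5 kb of one. Within 5 kb the share was 31.3% in the next ranks, and regions that overlap an IDR peak had been dropped from both. The 104 dropped regions overlapped an IDR peak by a median of 192 bp, with a median distance of 203 bp between the summits, and 72 of them lay in the promoter class.

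Support in the replicates' own lists was unequal. Support here means an overlap of at least 1 bp with a region of that replicate's list that has a deposited q of 0.05 or less. Replicate 3 supported 1821 regions (83.3%) and replicate 2 supported 525 (24.0%), beside 24.9% and 11.8% of all pooled regions. Both supported 336 (15.4%, 13.9 to 16.9), beside 10.1% of all. The IDR peaks had support in both at 85.6% and the next ranks at 1.04%. In 1485 regions (67.9%) support came from replicate 3 alone, in 189 (8.65%) from replicate 2 alone, and in 176 (8.05%) from neither, beside 14.8%, 1.63% and 73.5% of all pooled regions. Replicate 3's list holds more regions at that q, 5908 against 2682 of 30000 each, and the part of this difference in the unequal support was not tested. The pool was made from both replicates, so these counts are a description and not an independent check.

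**Figure D1:**
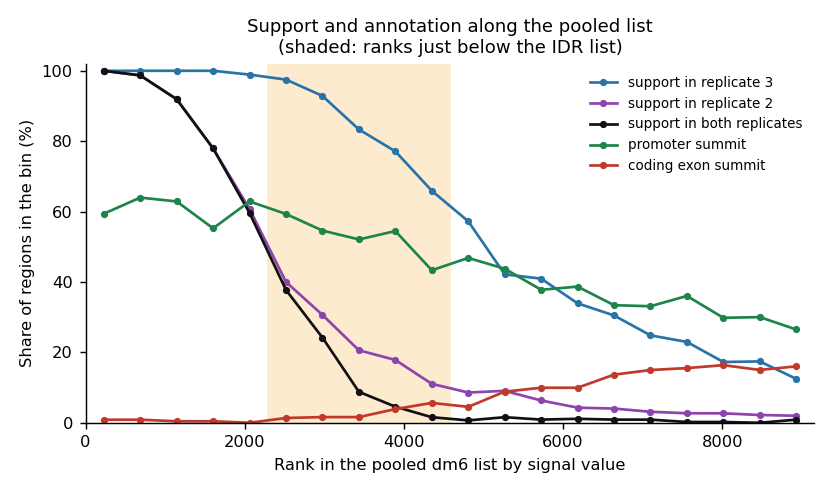
Share of regions in bins of 458 ranks, leaving out regions dropped for overlap with an IDR peak, against rank in the pooled list by signal value, with the ranks just below the IDR list shaded. Within the shaded ranks support in both replicates goes from 37.7% to 1.58%, support in replicate 3 from 97.5% to 65.9%, and promoter summits from 59.3% to 43.3%.

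Nearly all regions were present in both lists once q was set aside. Replicate 2 listed 2041 (93.4%) and replicate 3 listed 2178 (99.6%), beside 71.1% and 77.6% of all pooled regions. Both listed 2034 (93.0%), beside 52.2% of all and 82.8% of the next ranks. In neither list was 1 region, beside 3.48% of all. The best rank reached was 765 in replicate 2 and 940 in replicate 3, with medians of 4223 and 3609. Within as many top ranks of a replicate's list as there are IDR peaks stood 348 of them (15.9%) in replicate 2 and 308 (14.1%) in replicate 3. Of all pooled regions 10.1% and 10.2% stood there. In both lists 12 of these regions did so. Of all pooled regions 1888 (7.06%) stood there in both, 1594 of them IDR peaks. The rule takes regions below the IDR list, so nothing is read from this count.

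**Figure D2:**
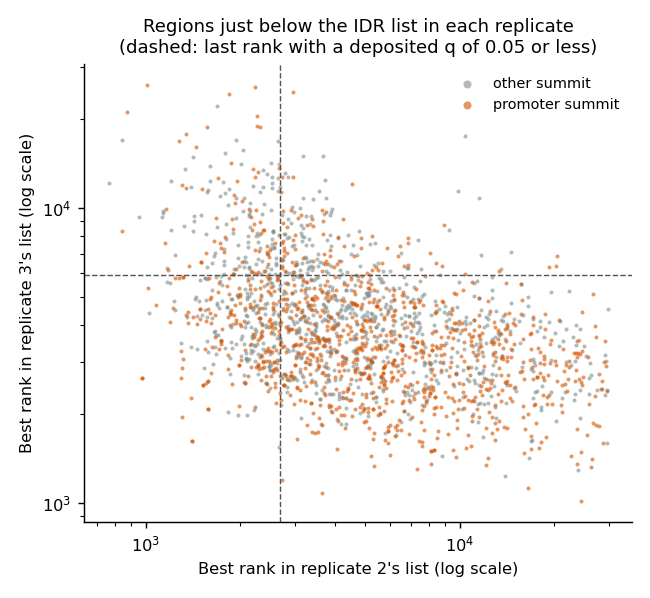
Best rank of each region in replicate 2's list (x, log scale) and in replicate 3's list (y, log scale), for the 2034 regions listed in both, coloured by promoter or other summit. Dashed lines mark the last rank with a deposited q of 0.05 or less, 2682 in replicate 2 and 5908 in replicate 3, and most points lie to the right of the first and below the second.

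The strongest 10 regions by signal value lay within a narrow range, 75.6 to 75.8, yet differed widely in replicate 2. The region 172 bp from a TSS of gpp, which encodes the Dot1 histone H3 methyltransferase, at 3R:6406485-6406880, ranked 1541 in replicate 2 and 3323 in replicate 3. An intergenic region nearest to AP-1gamma, a clathrin adaptor subunit gene, ranked 1462 and 4296, an intronic region nearest to fng, whose product modifies Notch, ranked 2495 and 2457, and an intronic region nearest to Doa, a protein kinase gene, ranked 2479 and 2895. These 4 had a q of 0.05 or less in both lists. The other 6 did so in replicate 3 alone. At hebe the ranks were 7432 and 1625, at CG13551 3537 and 1743, and at px, a wing vein gene, 3902 and 2331. A promoter region of RapGAP1, which encodes a GTPase activator for Rap, ranked 16882 and 1520, and that of numb, the Notch antagonist, ranked 9507 and 1516. The widest gap was at an intergenic region nearest to Cyt-c1L, with ranks of 29475 and 1590.

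The 10 regions whose worse rank over both replicates was best had both ranks at 2208 or better. Of these, 6 were promoter summits and 4 were intronic, and for 1 of the 10 the nearest gene was also marked by an IDR summit at most 1 kb from its TSS. That gene was Ptpmeg2, a protein tyrosine phosphatase gene (ranks 1305 and 1952). At Fmo-2, a flavin monooxygenase gene, 2 overlapping regions at 2R:6644992-6645387 and 2R:6645207-6645602 shared the same replicate regions, which ranked 1402 and 1615. At the paired promoters of Pfdn6, a prefoldin subunit gene, and Su(z)12, a Polycomb repressive complex subunit gene, 2 overlapping regions likewise shared ranks 1575 and 2080. Shared ranks of this kind mean that 10 regions stand for 8 loci. The intronic regions were nearest to muc (1972 and 1989), to trbl, the Tribbles pseudokinase gene (1834 and 2025), to Pgant5, a glycosyltransferase gene (2108 and 1990), and to ftz-f1, a nuclear receptor gene (2208 and 2068). A promoter region at CG30411 had ranks of 1976 and 2133.

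Some regions were strong in 1 replicate and unsupported in the other. Among regions that replicate 3 did not support, the best in replicate 2 was an intronic region nearest to crp, a bHLH factor gene, with rank 765 and a signal value of 53.9 there, against rank 12148 and 20.6 in replicate 3. CG5535 followed with ranks of 841 and 16982, and Pcyt1, a phosphatidylcholine synthesis gene, with 842 and 8344. Among regions that replicate 2 did not support, an intronic region nearest to spen, which encodes an RNA-binding repressor, ranked 940 in replicate 3 and was not listed in replicate 2. The promoter of ctrip, a ubiquitin ligase gene, ranked 24435 in replicate 2 and 1012 in replicate 3, and that of CG5068 ranked 3659 and 1083. At the other end, the 3 weakest regions, nearest to CG9706, CG14892 and GATAd, had q values in replicate 3 of 0.0251, 0.0396 and 0.00495, and none had a q of 0.05 or less in replicate 2.

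Just over 1 in 2 regions had their summit at a promoter, here within 500 bp of a protein-coding TSS. The count was 1153 (52.7%, 50.6 to 54.8), against 60.9% of IDR peaks and 40.1% of the next ranks. The difference was -8.13 percentage points (95% Newcombe interval -11.0 to -5.23) from the IDR peaks and 12.7 points (9.73 to 15.6) from the next ranks. Coding exons held 62 summits (2.84%), against 0.524% of IDR peaks and 9.40% of the next ranks. Those differences were 2.31 points (1.58 to 3.13) and -6.56 points (-7.99 to -5.17). On both measures these regions thus stood between the lists above and below, and each interval lies clear of 0. The promoter difference from the stronger regions had the same sign when the strips were taken from 1 replicate's list, at -8.42 points without replicate 2 and -22.1 without replicate 3, and the coding exon difference was 2.24 without replicate 2 and 9.67 without replicate 3. Both are larger in replicate 2's list alone.

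Introns held 628 summits (28.7%), 4.19 points (1.60 to 6.77) more than among IDR peaks and -3.22 points (-5.93 to -0.502) relative to the next ranks. Intergenic sequence held 251 (11.5%), which differed from the IDR peaks by 1.22 points, an interval that holds 0 (-0.604 to 3.05), and from the next ranks by -2.16 points (-4.12 to -0.204). The 41 summits in non-coding genes (1.88%), the 31 in 5′ UTRs (1.42%) and the 20 in 3′ UTRs (0.915%) were few in each list. On the X chromosome lay 18.7% of the regions, beside 18.6% of IDR peaks and 15.2% of the next ranks, a difference of 3.48 points (1.26 to 5.70) from the latter. Arm 3L held 21.8%, 3.09 points (0.731 to 5.44) more than among IDR peaks, and arm 3R 22.1%, -3.66 points (-6.18 to -1.14) from the next ranks. Among all pooled regions X held 15.9%, 3L 21.2% and 3R 24.5%.

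**Figure D3:**
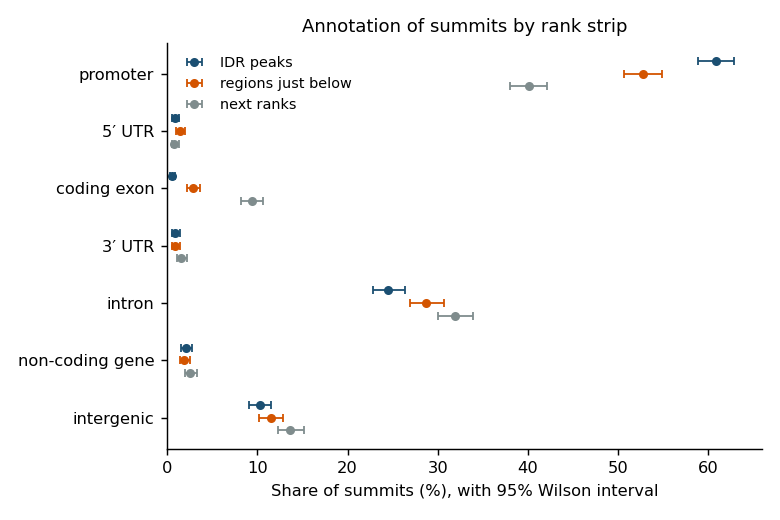
Share of summits in each annotation class (x, percent, with 95% Wilson intervals) for IDR peaks, the regions just below and the next ranks. Promoter shares go from 60.9% through 52.7% to 40.1% down the list, and coding exon shares from 0.524% through 2.84% to 9.40%.

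The same change ran within the regions themselves. In 5 groups of 437 or 438 regions by rank, the promoter share was 59.3% in the strongest and 43.2% in the weakest group, a difference of 16.1 points (9.51 to 22.5), with 54.7%, 52.2% and 54.5% between them. Coding exon summits made up 1.37% of the strongest and 5.71% of the weakest group, a difference of -4.33 points (-7.02 to -1.92). The 3 groups between lie close together in promoter share, so the difference rests on the first and last groups.

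Promoter content also differed with the replicate that gave the support. Of the 1485 regions that only replicate 3 supported 56.5% were promoter summits, and of the 189 that only replicate 2 supported 36.0%, a difference of -20.5 points (-27.5 to -13.0). Intergenic summits made up 20.1% of the latter and 10.2% of the former, a difference of 9.94 points (4.59 to 16.4). The 336 regions supported in both stood at 50.3% promoter, -6.20 points (-12.1 to -0.314) from those of replicate 3 alone. Support was assigned from lists behind the pooled signal, and the groups differ in it, with medians of 68.7 in both, 58.4 in replicate 2 alone and 60.5 in replicate 3 alone.

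Promoter summits lay mostly just upstream of the TSS. Their median position was -41 bp from the nearest TSS, with 67.4% upstream and 59.2% within 100 bp. The IDR peaks had a median of -62.5 bp and 77.9% upstream, and the next ranks -8 bp and 52.2%. At 330 of the 1153 promoter summits (28.6%) TSSs of both strands lay within 500 bp, the arrangement of a divergent or overlapping gene pair. This was -7.39 points (-11.0 to -3.74) from the 36.0% of promoter IDR peaks and 4.95 points (1.09 to 8.73) above the 23.7% of the next ranks. GC content within 100 bp of the summit had a median of 40.8%, between 39.8% in IDR peaks and 43.8% in the next ranks. Summits inside annotated transposable elements numbered 5 (0.229%), beside 0.218% of IDR peaks, 0.271% of the next ranks and 0.527% of all pooled regions.

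The promoter words were as frequent here as in the IDR peaks and more frequent than further down. The DREF word TATCGATA, bound by the factor that controls many replication and housekeeping genes, lay within 100 bp of 139 summits (6.36%), against 6.51% of IDR peaks, 2.94% of the next ranks and 2.05% of all pooled regions. The difference from the next ranks was 3.42 points (2.19 to 4.69), and that from the IDR peaks was -0.148 points (-1.59 to 1.30). The M1BP word GGTCACAC, found at promoters with paused polymerase, lay at 108 summits (4.94%), against 4.72%, 2.94% and 1.85% in the same order, and differed from the next ranks by 2.00 points (0.857 to 3.17). Promoter summits carried nearly all of both words: DREF was found at 11.3% of them and at 0.871% of other summits, and M1BP at 8.85% and 0.581%. Within the promoter class the differences from the next ranks were 4.17 points (1.64 to 6.64) for DREF and 2.87 points (0.557 to 5.12) for M1BP. Words were searched on both strands, and 1 window can hold several, which may overlap, as a repeat of CA can run on from the M1BP word.

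Full p53 sites were about as frequent here as elsewhere in the list. They were found at 139 summits (6.36%), against 7.21% of IDR peaks, 6.28% of the next ranks and 5.93% of all pooled regions, with differences of -0.847 points (-2.32 to 0.634) and 0.0776 points (-1.37 to 1.52). Of the 139, 118 had 3 mismatches. Sites with at most 2 mismatches were found at 21 summits (0.961%, 0.629 to 1.46), beside 31 IDR peaks (1.35%, 0.955 to 1.92) and 18 of the next ranks (0.813%, 0.515 to 1.28), whose intervals overlap. A perfect half-site was found at 3.93%, 4.54%, 3.75% and 3.58%, in the order of these regions, IDR peaks, next ranks and all pooled regions. The half-site with its ends exchanged, which has the same letters but not the p53 pattern, was found at 2.65%, 2.45%, 2.80% and 3.22%. Most regions held no site of this definition, which says only that the letters are not in the window.

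Of the 13 words and sites searched, 1 differed from the IDR peaks: the C/EBP word TTGCNNAA was found at 14.3% of these regions, 17.6% of IDR peaks, 14.4% of the next ranks and 15.3% of all, a difference of -3.37 points (-5.51 to -1.22) from the IDR peaks. Against the next ranks 5 differed, with the TATA box word TATAAA (21.7%, 18.9% there, 17.3% of all) higher by 2.84 points (0.463 to 5.22). The Zelda word CAGGTAG (0.823%, 1.58% and 1.37%) differed by -0.758 points (-1.44 to -0.110) and the CA repeat CACACACA (5.26%, 6.91% and 5.58%) by -1.65 points (-3.08 to -0.238). Each of these 3 intervals held 0 in at least 1 of the other windows or sets tried. The remaining words differed from neither list beyond their intervals in this window, although 2 of them did differ from the IDR peaks in others. The E-box differed by -0.742 points with 50 bp and -1.50 with 200 bp on each side, and the Caudal word by -2.18 with 50 bp. In the main window GAGAG of the GAGA factor was found at 26.7% of the regions and 25.1% of all, the Caudal word TTTATG at 17.6% and 17.7%, the Jun and Fos word TGANTCA at 3.89% and 3.72%, and the E-box CACGTG at 2.47% and 2.95%.

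**Figure D4:**
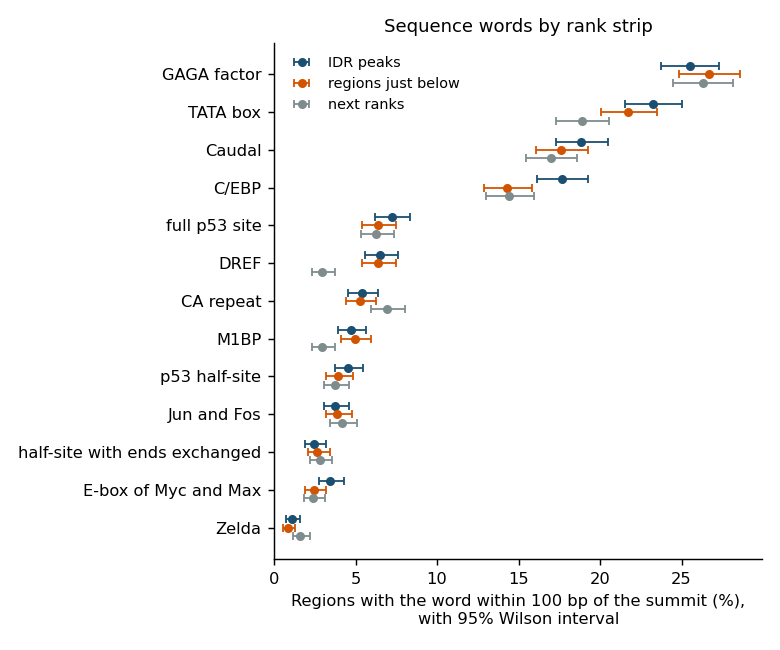
Share of regions with each word within 100 bp of the summit (x, percent, with 95% Wilson intervals) for IDR peaks, the regions just below and the next ranks. For DREF the shares are 6.51%, 6.36% and 2.94%, whereas for the full p53 site they are 7.21%, 6.36% and 6.28%.

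By genes, 1758 of 13945 protein-coding genes (12.6%) had one of these summits within 1 kb of a TSS, and 1516 of the 1758 (86.2%) had no IDR summit within 1 kb. The IDR peaks alone marked 2164 genes, and both lists together 3680 (26.4%). Of the regions, 811 had no protein-coding TSS within 1 kb, 873 had those of 1 gene and 502 those of more. A gene was counted also where a TSS of another gene lay nearer to the summit. Most genes had 1 such summit and 153 had more, up to 4 at SNF4Agamma, which encodes a subunit of the energy sensor AMPK, and at Trpm, a cation channel gene, both named after their values were seen.

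None of the 10 genes listed as p53 targets in the radiation response had one of these summits within 1 kb, against 12.6% of all protein-coding genes, and 4 of the 10 (Xrp1, egr, Corp and hid) had an IDR summit there. The nearest regions lay 2296 bp from a TSS of Xrp1, a bZIP factor gene, 2521 bp from Corp, a p53 feedback regulator gene, 2723 bp from egr, the TNF ligand gene, and 3935 bp from the death gene rpr. Farther away they were at 6534 bp from RnrL, a ribonucleotide reductase gene, 17014 bp from skl and 26682 bp from hid, both death genes. The repair genes Ku80, Irbp and mre11 had distances of 23850, 37895 and 42017 bp. The region closest to Xrp1, in a coding exon at 3R:18926168-18926563, had its own nearest protein-coding TSS at Mpc1. It had a signal value of 65.9 and ranked 2171 in replicate 2 and 5133 in replicate 3. Other distances also ended at regions nearest to other genes, such as CG1371 for egr, CycE for Ku80, CG7320 for hid and GATAd for RnrL.

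Genes of the DNA damage checkpoint and of repair had such summits in 7 of 33 cases (21.2%), beside 12.6% of all protein-coding genes, and the next ranks also marked 7 of the 33. None of the 7 with a summit from these regions had an IDR summit within 1 kb. They included mus201, an excision repair endonuclease (signal value 70.6), Claspin, a checkpoint mediator (69.2), and lok, the checkpoint kinase Chk2 (65.4). For lok the ranks were 24722 in replicate 2 and 2661 in replicate 3. All 3 ranked better in replicate 3, whose ranks for mus201 and Claspin were 1787 and 3067 against 12123 and 5201 in replicate 2. The summit counted for mus201 lay 799 bp from its TSS and nearer to D12. Also among the 7 were grp, the Chk1 kinase, and PolQ, polymerase theta. At grp the order was the opposite, with 872 in replicate 2 and 21130 in replicate 3. Of 19 cell death genes 3 (15.8%) had one: Bruce, an inhibitor of apoptosis (72.8), and the caspases Dredd (63.1) and Dronc (59.8), all promoter summits with no IDR summit within 1 kb.

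Cell cycle genes had the highest share of the 26 lists, 10 of 25 (40.0%), beside 12.6% of all protein-coding genes. An IDR summit lay within 1 kb at 7 of the 25 genes (28.0%, beside 15.5% of all). One of the next ranks lay there at 6 (24.0%, beside 10.4% of all). Of the 10 genes with a summit from these regions, 7 had no IDR summit within 1 kb. With IDR peaks included 14 of the 25 had a summit. The strongest were at Dp, the E2F partner (75.1, ranks 1457 and 4026), CycD (74.0, ranks 1608 and 4404), E2f1 (69.7, ranks 11696 and 2493) and aurA, the Aurora A kinase (69.6, ranks 1293 and 2644). The others were the cyclins CycA, CycE and CycG, the CDK inhibitor dap, the retinoblastoma protein Rbf2 and the kinase Cdk4. Their support differed between the replicates: CycA ranked 2015 and 3053, and dap 17444 and 2170. In lists of this size 1 gene moves the share by several points, and no list was tested.

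Lists of protein synthesis and energy metabolism are long, and their shares stood from 12.5% to 19.3%, beside 12.6% of all protein-coding genes. Of 93 cytosolic ribosomal protein genes 15 (16.1%) had one of these summits, 10 of them with no IDR summit within 1 kb, while 64 (68.8%) had an IDR summit, so that 74 (79.6%) had either. The strongest 4 were RpS28b (74.6), RpL7-like (73.1), RpS19a (72.9) and RpS14a (72.2). The summits counted for RpS28b and RpL7-like lay 822 and 752 bp from a TSS of these genes and nearer to l(1)G0320 and JhI-21. RpS19a ranked 2714 in replicate 2 and 1196 in replicate 3. Of 73 mitochondrial ribosomal protein genes 12 (16.4%) had one and none of those 12 an IDR summit, led by mRpL32 (75.6), mRpL44 (68.7), mRpL53 (67.2) and mRpL2 (65.7), all promoter summits. The summits counted for mRpL44, mRpL53 and mRpL2 had their nearest protein-coding TSS at Snr1, AGO1 and FoxK. The respiratory chain had 17 of 88 (19.3%), beside 16 with an IDR summit, among them the succinate dehydrogenase genes SdhC (73.3) and SdhB (71.3), ND-ASHI of complex I (rank 1761 in replicate 3) and COX7AL2 (69.9) of complex IV. Translation factors had 10 of 54 (18.5%), with eEF2 (73.9), eIF2Bdelta (67.3), eIF5B (66.5) and eIF4E1 (63.4) strongest. The summits counted for SdhC and eIF2Bdelta had their nearest protein-coding TSS at Tctp and roh. Proteasome subunits had 7 of 48 (14.6%), with Rpn1 (75.6), Prosalpha7 (73.5), Rpn9 (59.1) and Prosalpha3 (56.9) strongest, and aminoacyl-tRNA synthetases 4 of 32 (12.5%): TyrRS-m, PheRS-m, AsnRS and HisRS.

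**Figure D5:**
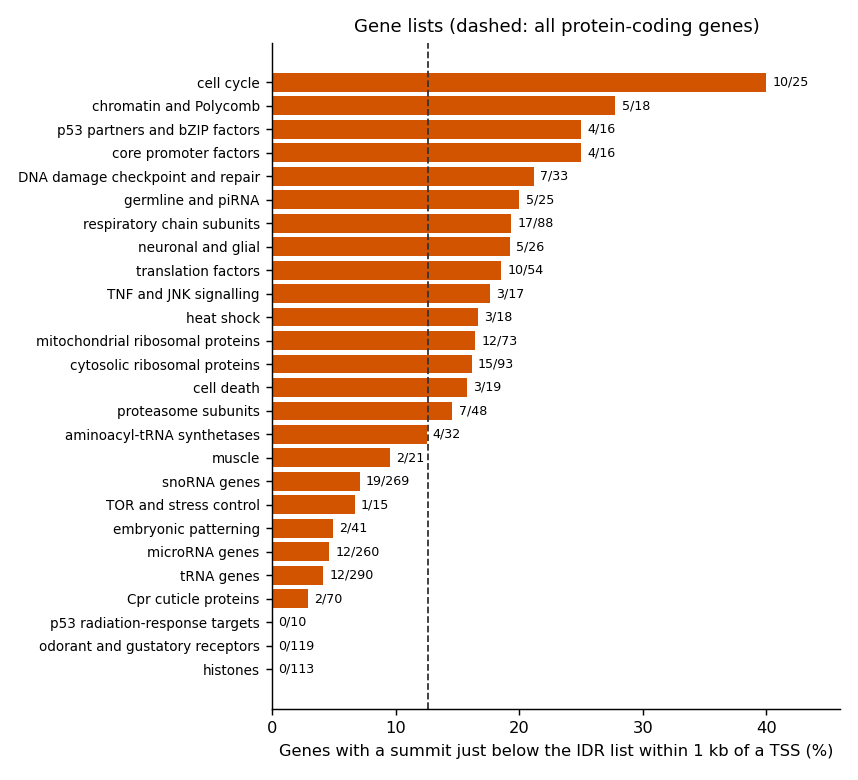
Share of genes in each list with a summit just below the IDR list within 1 kb of a TSS (x, percent), with counts beside the bars and the 12.6% of all protein-coding genes as a dashed line. Cell cycle genes stand at 40.0%, and histone genes, chemoreceptor genes and the p53 target list stand at 0; the tRNA, microRNA and snoRNA lists are not protein-coding and have no such line of their own.

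Regulators of transcription and chromatin had smaller lists, given beside the 12.6% of all protein-coding genes. Of 18 chromatin genes 5 (27.8%) had a summit, with Tlk, the tousled-like kinase (72.5), Caf1-55 (66.1) and Caf1-180 (56.8) of the chromatin assembly factor, and Su(z)12 (64.5) strongest. Of 16 core promoter factor genes 4 had one, and they encode BEAF-32 (64.2), M1BP itself (57.3), Trf2 (55.5) and Trl, the GAGA factor (52.1). The bZIP list also had 4 of 16, at cnc, the Nrf2 homologue (75.1), Jra, the Jun protein (63.2), slbo, a C/EBP protein (58.5), and CrebB (55.1). Jra is also 1 of 3 genes of 17 (17.6%) in TNF and JNK signalling, with wgn, a TNF receptor (73.8), and msn, a JNK pathway kinase (70.1). The TOR and stress list had 1 of 15 (6.67%), cbt (70.5). Heat shock genes had 3 of 18 (16.7%), the chaperones Hsc70-3 (74.6), Hsp83 (69.9) and Hsp68 (62.5).

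Lists of tissue genes lay on both sides of the 12.6% of all protein-coding genes. Embryonic patterning had 2 of 41 (4.88%), ptc, the Hedgehog receptor (70.3), and opa, a pair-rule gene (53.7), and neither region was listed in replicate 2, whereas replicate 3 ranked them 1683 and 2796. Muscle had 2 of 21, sns, a myoblast fusion protein (72.5), and Mef2, the muscle transcription factor (64.3). The neuronal and glial list had 5 of 26 (19.2%), led by ey, an eye selector gene (68.8), nrv2, a sodium pump subunit (67.0), Lim1 (61.7) and Nrg, a neuronal adhesion protein (55.8). The germline and piRNA list had 5 of 25, led by bam, a differentiation factor (74.6), cuff (68.4) and armi (66.5) of the piRNA pathway, and vas, the germline helicase (56.3). The summit counted for armi is also that of eIF5B, 580 bp from a TSS of armi and 134 bp from one of eIF5B. The summit counted for cuff lay nearest to CG13185. Cuticle protein genes of the Cpr family had 2 of 70, Cpr73D (53.1) and Cpr31A (52.3). Histone genes had 0 of 113 and odorant and gustatory receptor genes 0 of 119.

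Small RNA genes were reached through few regions. Of 290 tRNA genes 12 (4.14%) had such a summit within 1 kb, at 7 regions. An IDR summit lay there at 6.90% of the tRNA genes and one of the next ranks at 4.83%. The strongest of the 7 was at the paired genes tRNA:Asp-GTC-1-4 and tRNA:Asp-GTC-1-5 (71.5), followed by that at tRNA:Pro-TGG-1-1 and tRNA:Val-CAC-1-1 (70.5). Of 269 snoRNA genes 19 (7.06%) had one, beside 13.8% with an IDR summit and 4.83% with one of the next ranks. The strongest regions of these 19 genes were 12 regions, and some of the genes had a further one. Some of these regions are the promoter regions of ribosomal protein genes, as at RpL10Ab (71.9) and RpL15 (71.5), so the same region counts for both. Of 260 microRNA genes 12 (4.62%) had one, beside 5.77% with an IDR summit and 5.77% with one of the next ranks. The strongest were at mir-4918 (74.1), mir-4975 and mir-4974 (72.6 each) and mir-9377 (65.8). A region in a non-coding gene near mir-34 and mir-277 had a signal value of 55.6 and ranked 1339 in replicate 2 and 13500 in replicate 3; it was chosen after its values were seen.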

How the data were processed

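Peak lists from 2 biological replicates of 1 group were analysed. Per the file headers in the deposit, a list of peaks and background regions exists for each replicate and for the pool of both, and IDR gave the final list. The replicates share 1 control library, not analysed here. The deposited lists give, for each region, the authors' signal value and a −log10 q-value. The aligner, peak caller, IDR threshold and signal scaling were not given in the sources used here, and read depth is unknown. No IDR value per peak was used.

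Here the members, words and gene lists were chosen with earlier results of these data known. Coordinates are dm6 (Release 6), 1-based, with Ensembl gene models (release 115). Each summit took the first class that applied: promoter (a protein-coding TSS at most 500 bp away), 5′ UTR, then coding exon, then 3′ UTR, then intron, then any non-coding gene, and otherwise intergenic. Shares have 95% Wilson intervals and their differences 95% Newcombe intervals, and no p-value was computed, since regions are not replicates. The named regions are the 10 of highest signal, the 10 whose worse replicate rank was best, the 3 best of each replicate without support in the other, the 3 weakest, the strongest genes of each list (up to 4, except that some repair genes are not reported here, and that the DNA repair, cell cycle and microRNA lists name further genes, chosen after their values were seen), every listed p53 target, and the clearest examples of p53 sites and promoter words. List symbols nos and Tor had no match. All steps used Python 3.11.15 with numpy 2.4.6 and pandas 2.3.3; the overlap, word and interval steps were tested on simulated data. MicroRNA genes were matched by symbol, after the annotation was seen to hold no such class. Alternatives were other windows, overlap rules, q levels and rankings, each replicate's list alone and the dm3 lists.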

Additional observations from a re-analysis of the deposited data

Results flagged for a closer look

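The dm3 lists were used only as an alternative. There, 4 regions of the corresponding strip below the dm3 IDR list lay on heterochromatic or unplaced sequences, 1 each on U, Uextra, 3LHet and 3RHet. Their signal values ran from 53.1 to 71.3. No control sample was used here, so no background level stands beside them.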

How the results depend on the processing

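The promoter and coding exon differences from the IDR peaks and the next ranks were each recomputed under 8 alternatives, and each kept its direction and its side of 0. The promoter difference from the next ranks was 11.2 points without replicate 2 and 8.09 without replicate 3. Support in both replicates, 15.4%, was 10.7% with summits within 100 bp, 2.29% at a replicate q of 0.01, 26.4% among as many top ranks of each list as reach the last member's rank, 93.0% with any listed region, 28.6% for regions with a pooled q of 0.01 or less and 12.6% in dm3. Support in neither, 8.05%, was 12.8% with summits within 100 bp, 32.2% at that stricter replicate q, 0.0457% with any listed region, 0.786% with that pooled q and 10.2% in dm3. With 1 list at a time the share supported was 24.0% to 83.3% and the share unsupported 16.7% to 76.0%. Genes with no IDR summit, 1516, numbered 801 with that pooled q and 953 to 1353 with 1 list at a time. The words that differed from the IDR peaks, 1, numbered 4 with 50 bp and 2 with 200 bp on each side. Those that differed from the next ranks, 5, numbered 2 with 50 bp, 3 with 200 bp and 3 in the promoter class alone. Of 61 recomputed values 39 were classed as the same. These are differences on the same side of 0, shares within the counting error and an unchanged count of words. They also include gene counts that moved from 1516 to 1343 with 500 bp, 1788 with 2 kb and 1353 without replicate 2. Of 78 for single words 67 were classed as the same, while 7 lost and 4 gained an interval clear of 0. The gains were against the IDR peaks, for the E-box in both windows and, with 50 bp, for the Caudal word and the TATA box (-2.09 points). The cause was not tested. No paired analysis was possible because there is 1 group. Unknown read depth limits every signal value, and 2 replicates give no spread for a share.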
